A study of Schizosaccharomyces pombe with 18 samples.

Results

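Early stationary phase *rpl32-2* cells were compared with WT cells of the same phase. The comparison rests on 6 of the 18 arrays of the series, chosen by their labels: 3 arrays labelled *rpl32-2* and 3 labelled WT, each from a culture of its own. Cells of the fission yeast strain SP-Q01 (*h-*, *leu1-32*) carried a plasmid for overexpression of *rpl32-2* or the empty plasmid (WT), and both groups grew in EMM2, a minimal medium, at 30 °C to an OD600 of 10. The plasmid is pESP3 by the labels, while the study's methods give pREP3X for overexpression. The question was which genes respond to Rpl32-2 when cells enter stationary phase. The gene was carried on a plasmid, whose copies can vary from cell to cell. By the description of the strains, the chromosomal copies of both paralogs remained, which was not tested here. Levels are log2 values of the array signal of a probe set, quantile-normalized over the 2937 probe sets that carry an *S. pombe* gene name, and a difference of 1 is 2-fold.

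Rpl32 is a protein of the large ribosomal subunit, and in fission yeast it is made from a pair of nearly identical genes, *rpl32-1* and *rpl32-2* (*rpl3201* and *rpl3202* in the annotation). Cells that run out of nutrients stop dividing: they switch off the genes of the G1/S transition and of cell separation, and turn on genes for stress resistance, other carbon sources and, in part, the sexual cycle. G1/S genes are driven by the MBF transcription factor. The insert of the plasmid was defined by its cloning primers, which are shown because they bound what the plasmid can transcribe of the gene. Capitals mark the bases that match the gene, beginning at the start codon in the first primer and at the complement of the stop codon in the second, and small letters the added end with the XhoI or SmaI site.
RPL32-2fo: ccgctcgagATGGCTGCTGTCAATATCATC
RPL32-2re: tcccccgggTTACTCCTGAGAGCGAACC
The insert thus ran from start to stop codon, without the untranslated ends of the gene. No source used here says which part of the gene the probes read, and a probe set in the untranslated 3′ end would not measure the plasmid transcript.

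The *rpl32-2* probe set (SPAC3H5.10) gave 13.46, 8.80 and 7.72 on arrays 1, 2 and 3 labelled *rpl32-2*, against 13.50, 13.58 and 13.70 on the WT arrays. Array 1 thus lay at the WT level and arrays 2 and 3 far below it, and none of the 3 lay above WT, although the label names an overexpression strain. The WT values were already near the top of the scale (*nmt1*, of very high rank, had 14.18 to 14.29 in WT cells). A rise thus had little room to show, and array 1 at the WT level does not show equal expression. The difference in means was −3.60 (SE 1.47, adjusted p 0.191 in limma). For *rpl32-1* (SPBC16C6.11), the values were 13.41, 12.16 and 12.19 on the arrays labelled *rpl32-2* and 13.48, 13.61 and 14.29 on those of WT (−1.21, SE 0.51, adjusted p 0.20). Again array 1 was close to the lowest WT array and the other two were lower. Arrays are therefore named by their labels throughout, and every direction below holds for the arrays so labelled.

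A further probe set split the arrays in the same way as the paralogs. *mal1* (SPBC1683.07), which encodes a maltase, had 7.06, 9.55 and 9.64 on arrays 1, 2 and 3 labelled *rpl32-2*, against 6.64, 6.92 and 7.82 in WT cells (1.62, SE 0.74, adjusted p 0.233). In log phase it had 7.99, 9.35 and 9.30 on the arrays labelled *rpl32-2*, and 7.93, 8.22 and 8.20 in WT cells. Thus *mal1* was high on arrays 2 and 3 of either phase and near WT on array 1 of either phase, the arrays on which the *rpl32-2* probe set was low and near WT. This was not particular to the arrays labelled *rpl32-2*: array 3 labelled *rpl32-1* of early stationary phase also had a low *rpl32-2* probe set and a high *mal1* (8.96 and 9.68). Arrays 1 and 2 labelled *rpl32-1* stood near WT, with 13.55 and 13.63 for the *rpl32-2* probe set and 6.66 and 7.16 for *mal1*. *mal1* was singled out after its values were seen, and whether the 2 signals have a common origin was not tested.

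**Figure D1:**
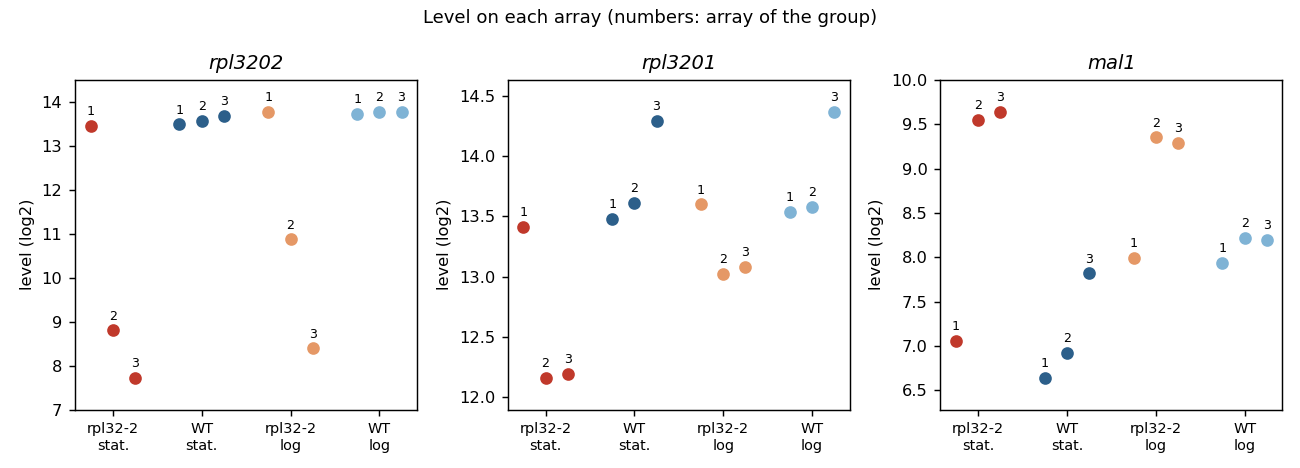
Level (log2, vertical axis) of the *rpl32-2* (*rpl3202*), *rpl32-1* (*rpl3201*) and *mal1* probe sets on each array labelled *rpl32-2* and each WT array, in early stationary phase (stat.) and log phase. Each point is 1 array and the number above it is the array of its group; *rpl3202* stood at 13.46 on array 1 labelled *rpl32-2* in early stationary phase and at 8.80 and 7.72 on arrays 2 and 3.

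Array 3 labelled *rpl32-2* stood apart from arrays 1 and 2 across the genome. Against the mean of the WT arrays, 161 probe sets lay at least 2-fold higher on array 1 and 139 at least 2-fold lower (5.48% and 4.73% of those measured). Array 2 had 142 and 114 (4.83% and 3.88%), and array 3 only 40 and 29 (1.36% and 0.987%). The WT arrays differed among themselves too. Set against the mean of the other WT arrays, WT array 1 had 59 probe sets past 2-fold upwards and 65 downwards, WT array 2 had 91 and 110, and WT array 3 had 202 and 214. The like counts within the arrays labelled *rpl32-2* were 28 and 60 for array 1, 34 and 23 for array 2, and 124 and 126 for array 3. WT array 3 thus stood further from the rest of its group than array 3 labelled *rpl32-2* from its own, and both were kept in the main fit. WT array 3 was also the dimmest of the 6, where 21.7% of the probe sets did not exceed the background, compared with 0.715% to 2.52% for the remaining 5 arrays. As deposited, the arrays do not share a distribution but fall into sets of alike arrays. Array 1 labelled *rpl32-2* shares set 1 with WT array 1, array 3 shares set 2 with WT array 2, and array 2 and WT array 3 lie in sets 4 and 3. No source used here says what the sets stand for, and 2 of the 3 arrays of each group thus have a partner of the other group in their set.

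**Figure D2:**
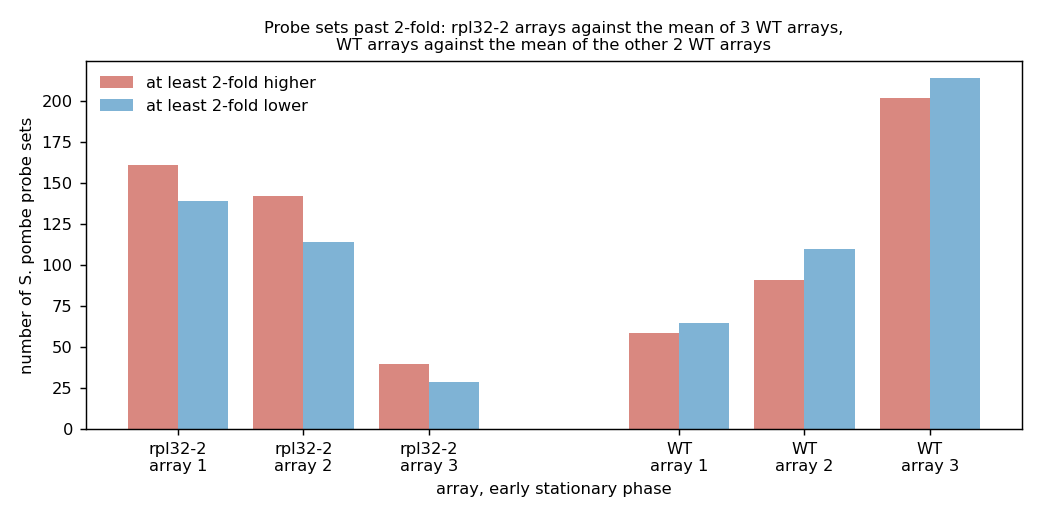
Number of *S. pombe* probe sets (vertical axis) past 2-fold on each early stationary phase array (horizontal axis). Arrays labelled *rpl32-2* are set against the mean of the 3 WT arrays, and each WT array against the mean of the other 2. Array 3 labelled *rpl32-2* had 40 higher and 29 lower. The baselines differ between the groups, so that bars of different groups are not like measures.

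At an adjusted p under 0.05 and 2-fold in limma, 0 probe sets were called (0% of 2937), *gln1* being closest with an adjusted p of 0.0703. At an unadjusted p under 0.05 and 2-fold, 93 probe sets passed (3.17%), 53 higher and 40 lower on the arrays labelled *rpl32-2* (1.8% and 1.36%). All 3 arrays lay above all 3 WT arrays for 171 probe sets and below them for 189 (5.82% and 6.44%). With 3 arrays in each group, some probe sets separate in this way by the order of the arrays alone. A lack of overlap is thus weak support for any single gene. With array 3 left out, 116 probe sets were called higher and 87 lower (3.95% and 2.96%), so that the count depends on that array. Without WT array 2 it was 17 higher and 1 lower. It was 3 and 0 without array 1 labelled *rpl32-1* of early stationary phase, which enters only through the pooled spread and the shared normalization. With array 3 left out and other scalings, 5 were called higher and 1 lower as deposited, and 105 and 42 with median centring. As deposited the median of all probe sets lay 0.65 above WT, with median centring 0.05 and after quantile normalization −0.01, so that directions below are relative to that shift. In what follows "called without array 3" refers to the 203 probe sets of the first of these fits (6.91% of all), in which arrays 1 and 2 were compared with the WT arrays. Array 3 was left out because its values across the genome differ from those of arrays 1 and 2. These calls thus describe arrays 1 and 2 and are no test of *rpl32-2* against WT, where 0 probe sets were called. For *rpl32-2*, *rpl32-1* and *mal1* the split was another, with array 1 near WT and arrays 2 and 3 apart from it. Arrays 1 and 2 therefore differ in the *rpl32-2* probe set itself (13.46 and 8.80). Over all probe sets the calls without array 3 come to 3.95% higher and 2.96% lower, the shares beside which the counts of each gene list stand.

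Genes of cell separation had the largest median difference of the gene lists: of 7 probe sets, 5 were called higher without array 3 and 0 lower, against 3.95% and 2.96% of all. *adg1* (SPAPJ760.03C), which encodes a cell surface glycoprotein, had 11.94, 11.42 and 6.91 on the arrays labelled *rpl32-2*, against 6.45, 5.82 and 7.08 in WT cells (3.64, SE 0.93, adjusted p 0.0961). Arrays 1 and 2 thus stood near the log phase level of the gene (means of 11.65 on the arrays labelled *rpl32-2* and 11.58 in WT cells), and array 3 within the WT range of early stationary phase. Without array 3 the difference was 5.27. *eng1* (SPAC821.09), whose glucanase splits the septum, had 11.65, 11.05 and 7.50, against 7.24, 7.57 and 8.63 in WT cells. The glycoprotein gene *adg2* had 11.31, 11.29 and 8.49, against 8.24, 7.63 and 8.72 in WT cells, and *adg3* was called without array 3 as well. For all of them array 3 lay within or next to the WT range. *mid2*, for an anillin-like protein of the septin ring, was the last of the 5, with 1.27 (SE 0.55), and 1.89 without array 3. The median of the list was 1.97 and 2.02 above the WT mean on arrays 1 and 2 and 0.30 above it on array 3, while that of all probe sets was −0.01, −0.01 and 0.00. More dividing cells and more RNA of these genes per cell cannot be told apart in cultures measured as a whole.

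MBF targets of the G1/S transition came next. Of 15 measured, 9 were called higher without array 3 and 0 lower, and on arrays 1 and 2 together 13 lay above all WT arrays (22.3% of all probe sets did). *cdc18* (SPBC14C8.07C), which licenses replication origins, had 10.16, 10.03 and 7.73 on the arrays labelled *rpl32-2*, against 6.89, 7.20 and 7.22 in WT cells (2.21, SE 0.46, adjusted p 0.0916). All 3 arrays lay above the WT arrays, array 3 by the smallest step. So did the arrays labelled *rpl32-1* of the same phase (7.88, 7.26 and 7.83), among whose values array 3 labelled *rpl32-2* stood. *cdt1*, its partner in licensing, had 9.67, 9.26 and 6.70, against 5.83, 6.11 and 7.88 in WT cells, where array 3 lay within the WT range. *cig2*, which encodes a cyclin, had 10.96, 10.52 and 9.76, against 7.97, 9.17 and 8.80 in WT cells, with no overlap. *cdc22*, the large subunit of ribonucleotide reductase, stood at 11.93, 11.58 and 10.38, against 9.32, 9.24 and 10.42 in WT cells. *cdt2*, *rad21* (cohesin), *yox1* (a repressor at MBF) and *mrc1* (replication checkpoint) completed the called genes with *mik1*, a kinase gene that exceeded the background on only 3 of the 6 arrays. Of the 5 probe sets of MBF itself 0 were called without array 3, and *res2* gave 7.02, 7.04 and 7.10, against 6.98, 6.84 and 4.20 in WT cells. Of 34 probe sets for replication licensing and forks, 0 were called without array 3 (median 0.15).

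Lists of mitosis, the kinetochore and the histones differed in how many members were called. In mitosis and the contractile ring, 3 of 27 were called higher without array 3 and 0 lower (3.95% and 2.96% of all): *slp1*, an activator of the anaphase-promoting complex, *cdc15*, an organiser of the ring, and the septin gene *spn4*. *slp1* had 10.86, 10.27 and 8.83 on the arrays labelled *rpl32-2*, against 8.35, 8.27 and 9.23 in WT cells. *cdc15* had 10.48, 10.26 and 9.44, against 9.37, 9.21 and 8.09 in WT cells, with all 3 arrays above WT. In the septation initiation network 1 of 14 was called, *etd1*, a regulator of the pathway (1.24, SE 0.35, adjusted p 0.104), and the median of that list was −0.00. *klp8*, a kinesin gene outside these lists, stood at 9.88, 9.51 and 8.47, against 7.86, 8.27 and 6.92 in WT cells. For the kinetochore 1 of 31 was called higher (*mis14*) and 1 lower (*fta6*) without array 3. Of the 13 histone probe sets 4 were called higher without array 3: *pht1*, the variant H2A.Z, with 10.78, 10.65 and 9.30 against 9.27, 9.14 and 9.56 in WT cells, and probe sets of *hht1* and *hhf1*, whose near-identical copies these probes may not tell apart. Histone levels on array 3 had a median of −0.09 from the WT mean, against 0.85 and 0.72 on arrays 1 and 2.

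**Figure D3:**
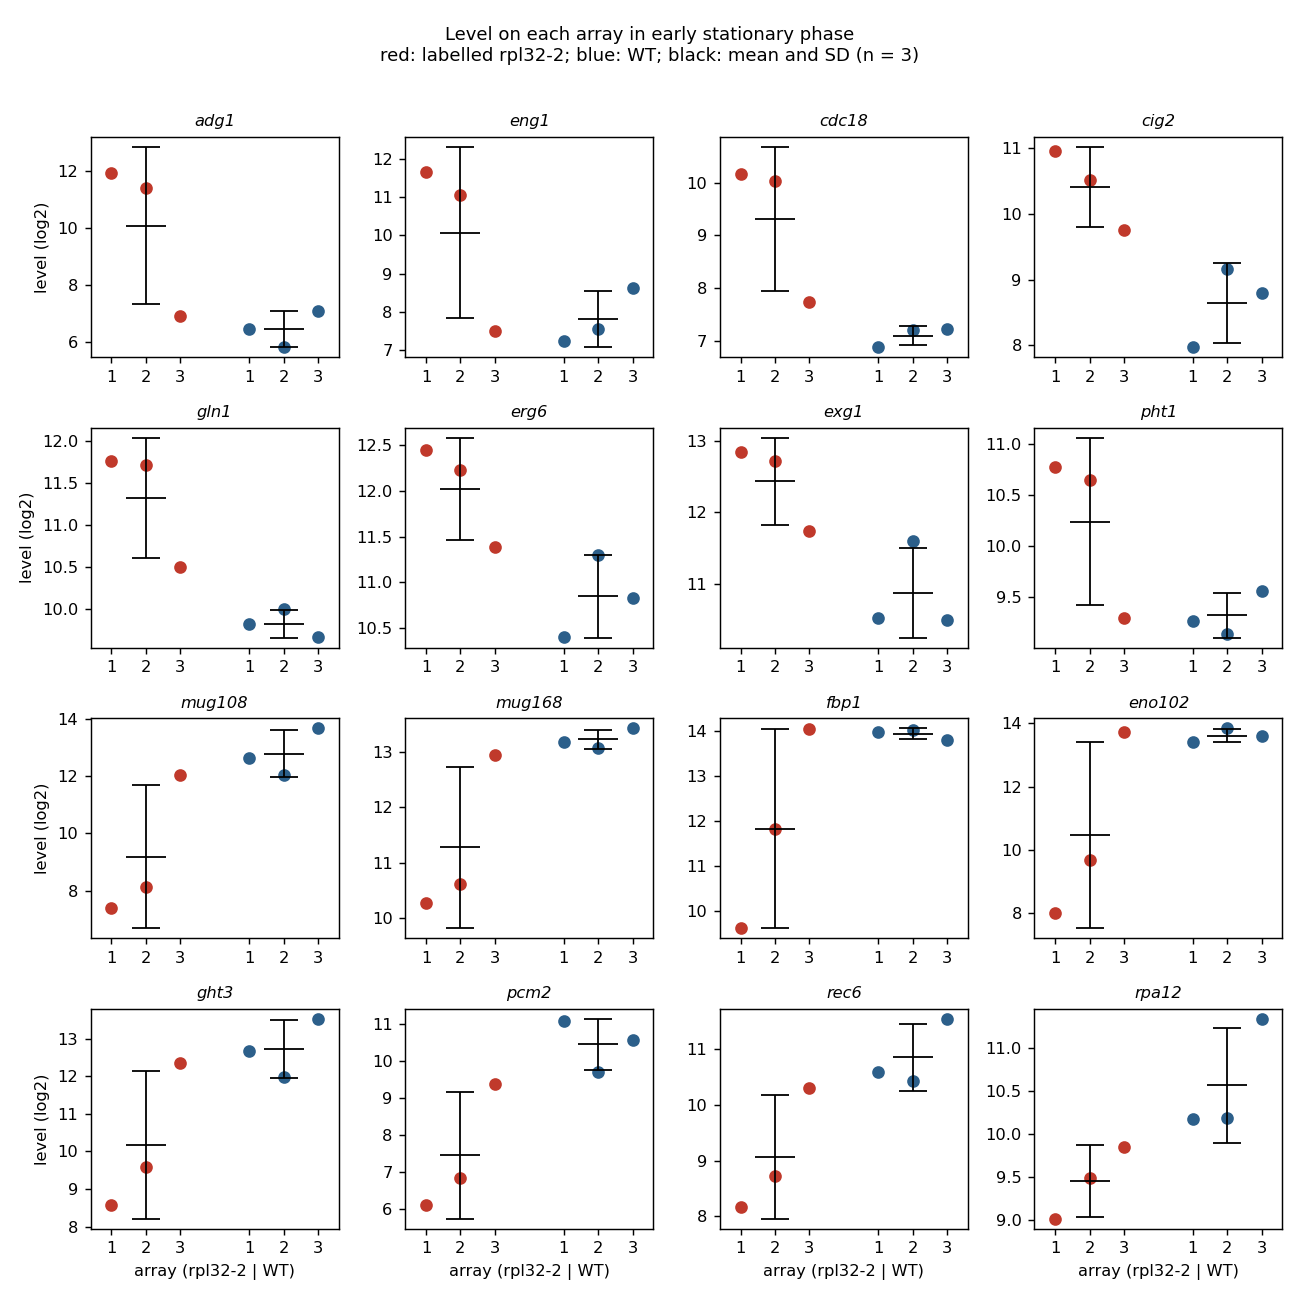
Level (log2, vertical axis) of selected genes on each early stationary phase array (horizontal axis), arrays 1, 2 and 3 labelled *rpl32-2* on the left in red and WT arrays 1, 2 and 3 on the right in blue; black bars give the mean and SD (n = 3). For *adg1* array 3 stood at 6.91, within the WT range, while arrays 1 and 2 stood at 11.94 and 11.42.

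Metabolic genes of growing cells gave smaller differences. In ergosterol and fatty acid synthesis 7 of 26 were called higher without array 3 and 0 lower (3.95% and 2.96% of all), and 15 lay above all WT arrays on arrays 1 and 2 (22.3% of all). *erg6* (SPBC16E9.05), a sterol methyltransferase gene, had 12.45, 12.23 and 11.39 on the arrays labelled *rpl32-2*, against 10.40, 11.30 and 10.83 in WT cells (1.18, SE 0.26, adjusted p 0.0916). *erg27*, for a sterol ketone reductase, had 10.65, 10.29 and 9.29, against 8.73, 8.93 and 7.83 in WT cells, and *erg11* (lanosterol demethylase), *erg28*, *erg4*, *erg10* and *hcs1* were called as well. Both named genes lay above WT on all 3 arrays, array 3 being the lowest of them. In amino acid synthesis 5 of 43 were called higher and 0 lower (*sam1*, *his5*, *met9*, *ser2* and *cys11*). *ser2*, for phosphoserine phosphatase, had 9.46, 9.72 and 6.65, against 7.61, 6.34 and 8.71 in WT cells, so that the WT arrays themselves spread over more than 2 units. Glycolysis had 1 of 12 called (*adh1*), while 10 of the 12 lay above all WT arrays on arrays 1 and 2 and 4 did so on all 3 (22.3% and 5.82% of all). Of these *pyk1*, pyruvate kinase, had 13.84, 13.70 and 13.47, against 13.17, 13.03 and 12.98 in WT cells. For the proteasome 0 of 27 were called without array 3, while 19 lay above all WT arrays on arrays 1 and 2, as 22.3% of all probe sets did. The median differences were 0.43 and 0.39 on these arrays, and array 3 had a median difference of −0.01.

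Cell wall genes were mixed. Of 30 measured, 7 were called higher without array 3 and 0 lower (3.95% and 2.96% of all), while the median of the list stayed at 0.09. *exg1* (SPBC1105.05), a glucosidase gene, had 12.85, 12.72 and 11.74 on the arrays labelled *rpl32-2*, against 10.53, 11.60 and 10.50 in WT cells (1.56, SE 0.32, adjusted p 0.0916). *gas1*, which encodes a glucanosyltransferase, had 12.91, 12.59 and 12.09, against 10.96, 11.74 and 10.61 in WT cells. Neither gene overlapped between the groups. *gas4* and *gas5* of the same family, *chs2*, *omh5* (a mannosyltransferase) and *ecm33* were called as well, and 8 of the 30 lay above WT on all 3 arrays (5.82% of all).

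For nitrogen, *gln1* (SPAC23H4.06), glutamine synthetase, had 11.76, 11.71 and 10.50 on the arrays labelled *rpl32-2*, against 9.82, 9.99 and 9.66 in WT cells (1.50, SE 0.25, adjusted p 0.0703). All 3 arrays exceeded WT, and without array 3 the difference was 1.92. The arrays labelled *rpl32-1* of the same phase (10.51, 10.09 and 10.48) exceeded WT too, and array 3 labelled *rpl32-2* stood among their values. The ammonium transporter gene *amt1* had 9.59, 10.70 and 9.69, against 9.47, 8.85 and 8.05 in WT cells. Of 21 probe sets in nitrogen uptake and amino acid permeases 3 were called higher without array 3 (*gln1*, *amt1* and the permease gene *aat1*) and 3 lower (*amt2*, *cat1* and *per1*), so that the list had no single direction. *cat1*, which takes up basic amino acids, stood at 9.29, 9.59 and 10.66, against 10.74, 10.60 and 11.09 in WT cells. Among thiamine-regulated genes 2 of 9 were called higher, *thi4* (12.36, 12.42 and 11.30, against 11.28, 10.99 and 11.52 in WT cells) and *pho4*, an acid phosphatase gene (12.41, 12.38 and 11.69, against 10.85, 11.50 and 9.13). *nmt1*, the thiamine gene whose promoter drives plasmids of the pREP series, stood at 14.20, 14.25 and 14.37, against 14.25, 14.29 and 14.18. Quantile normalization holds a probe set of such high rank near the top value of every array, so that these values do not show equal expression. With median centring the difference was −0.43. *act1* (actin) had a difference of 0.42 (SE 0.15, adjusted p 0.133). A probe set named *pho1* (acid phosphatase) in the deposited annotation maps by its identifier to *nc-pho1*, a non-coding RNA that overlaps that gene, and had 12.56, 12.30 and 9.95, against 9.54, 9.60 and 9.65 in WT cells.

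Several genes for other carbon sources were called lower without array 3. Of 19 in glycerol use, gluconeogenesis and alternative sugars 4 were called lower and 0 higher (2.96% and 3.95% of all). *fbp1* (SPBC1198.14C), fructose bisphosphatase, had 9.62, 11.83 and 14.06 on the arrays labelled *rpl32-2*, against 13.99, 14.04 and 13.81 in WT cells (−2.11, SE 0.77, adjusted p 0.148). The enolase gene *eno102* (SPBPB21E7.01C) had 8.01, 9.69 and 13.72, against 13.41, 13.84 and 13.60 in WT cells. *mel1*, an α-galactosidase gene, had 6.82, 8.23 and 10.67, against 11.13, 10.68 and 10.97 in WT cells, and the fourth gene was *dak2*, dihydroxyacetone kinase. For these genes array 1 was lowest, array 2 lay between, and array 3 stood at or next to the WT level. The hexose transporter genes went both ways: *ght3* had 8.57, 9.57 and 12.36, against 12.67, 11.99 and 13.52 in WT cells, and *ght4* 12.09, 12.39 and 10.30, against 10.19, 10.30 and 11.36. *pcm2* (SPAC869.08), a protein methyltransferase gene whose locus number follows that of *mel1* (SPAC869.07C), had 6.11, 6.84 and 9.38, against 11.08, 9.71 and 10.57 in WT cells (−3.01, SE 0.76, adjusted p 0.0961), with array 3 also below WT.

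Of 26 stress genes 0 were called higher and 2 lower without array 3 (3.95% and 2.96% of all), *zym1* (metallothionein) and *cta3* (a cation pump), and the median was −0.16. *zym1* had 9.50, 10.92 and 13.58 on the arrays labelled *rpl32-2*, against 13.68, 13.47 and 14.06 in WT cells. Of 23 heat shock and chaperone probe sets 0 were called. Of 17 iron and copper probe sets 0 were called higher and 3 lower without array 3 (*zym1*, *frp2* and *str1*), and WT arrays differed widely among themselves for others of the list. *frp1*, a ferric reductase gene, had 9.29, 10.17 and 9.65 on the arrays labelled *rpl32-2*, against 6.03, 7.91 and 10.10 in WT cells, a range of more than 4 units within WT. In autophagy and vacuolar proteases 13 of 26 lay below all WT arrays on arrays 1 and 2 (23.2% of all probe sets did), and 1 was called higher without array 3.

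Of 115 *mug* (meiotically upregulated) probe sets 10 were called lower and 1 higher without array 3, against 2.96% and 3.95% of all. *mug108* (SPAC29A4.12C) had 7.39, 8.15 and 12.03 on the arrays labelled *rpl32-2*, against 12.64, 12.03 and 13.66 in WT cells (−3.59, SE 1.21, adjusted p 0.130). *mug168* had 10.26, 10.61 and 12.95, against 13.18, 13.08 and 13.43 in WT cells, and *mug86* 8.12, 8.55 and 11.69, against 11.46, 11.74 and 10.27. Arrays 1 and 2 lay below every WT array for all 3 genes, and array 3 lay just below the WT range or within it. The median of the *mug* list was −0.26, and 0.05 with median centring. In meiotic recombination and sporulation 1 of 37 was called lower, *rec6*, a recombination gene (8.16, 8.72 and 10.31, against 10.59, 10.42 and 11.54 in WT cells). Of the lower genes outside the lists, *rev7*, a subunit of a translesion DNA polymerase, had 8.61, 8.69 and 10.17, against 10.37, 10.21 and 10.57 in WT cells, and *nta1*, an amidase of protein N-terminal residues, 8.61, 8.62 and 10.55, against 10.83, 10.69 and 10.83. Of the 21 *wtf* probe sets, a family of meiotic drive genes whose copies are so alike that probes may read several, 6 were called lower and 0 higher without array 3. *wtf17* had 6.34, 6.61 and 7.72, against 7.89, 8.20 and 8.29 in WT cells.

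Mating genes lay on different sides of the WT mean on different arrays. On array 3, 14 of 33 stood at least 2-fold above the WT mean and 1 at least 2-fold below it (1.36% and 0.987% of all), with a list median of 0.61. On array 1, 0 stood 2-fold above and 8 below it, and on array 2, 0 and 6, with medians of −0.36 and −0.22. Without array 3, 0 of the 33 were called higher and 1 lower. The strain is *h-*, and *mfm2*, a gene for the M-factor pheromone of *h-* cells, was high on all arrays (13.39, 13.47 and 13.49, against 13.04, 13.42 and 12.19 in WT cells). The pheromone and receptor genes of the opposite type, *map2* and *map3*, lay between 5.67 and 9.24. *sxa1*, also listed for the opposite type, had 11.99, 12.05 and 12.25, against 12.34, 12.19 and 11.81 in WT cells. *sxa2*, listed for *h-* cells, had 8.22, 7.84 and 8.55, against 7.87, 7.94 and 7.21. Level alone thus did not separate the lists of the mating types. Other M-cell genes (*mfm1*, *mfm3*, *mam1* and *mam2*) varied within both groups. *mam2*, the receptor of *h-* cells, had 8.16, 8.94 and 12.28 on the arrays labelled *rpl32-2*, against 9.81, 12.06 and 8.80 in WT cells. Array 3 and WT array 2, both of set 2, were the highest of the 6 for each of these 4 genes, and the part of the set in this was not tested.

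Of the genes of the ribosome, the Rpl32 paralogs described above had the largest differences on the arrays labelled *rpl32-2*, followed in the large subunit by *rpl3002* with −0.63. Of the 75 large-subunit and 46 small-subunit probe sets 0 were called without array 3, and the medians were −0.09 and −0.08 (−0.38 and −0.37 with median centring). All 3 arrays lay below all WT arrays for 13 probe sets of the large and 13 of the small subunit and above them for 1 of each, where 6.44% and 5.82% of all probe sets did so. Many of these genes have near-identical copies that probes may not tell apart. In ribosome biogenesis 2 of 37 were called lower without array 3, the GTPase genes *bms1* (8.93, 8.79 and 9.63, against 9.92, 9.77 and 10.09 in WT cells) and *nog1*. For RNA polymerases I and III 7 of 24 lay below WT on all 3 arrays and 0 above, and 1 was called lower without array 3. This was *rpa12* (SPCC1259.03), a subunit of polymerase I, with 9.01, 9.49 and 9.85, against 10.17, 10.19 and 11.34 in WT cells (−1.12, SE 0.27, adjusted p 0.0916).

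**Figure D4:**
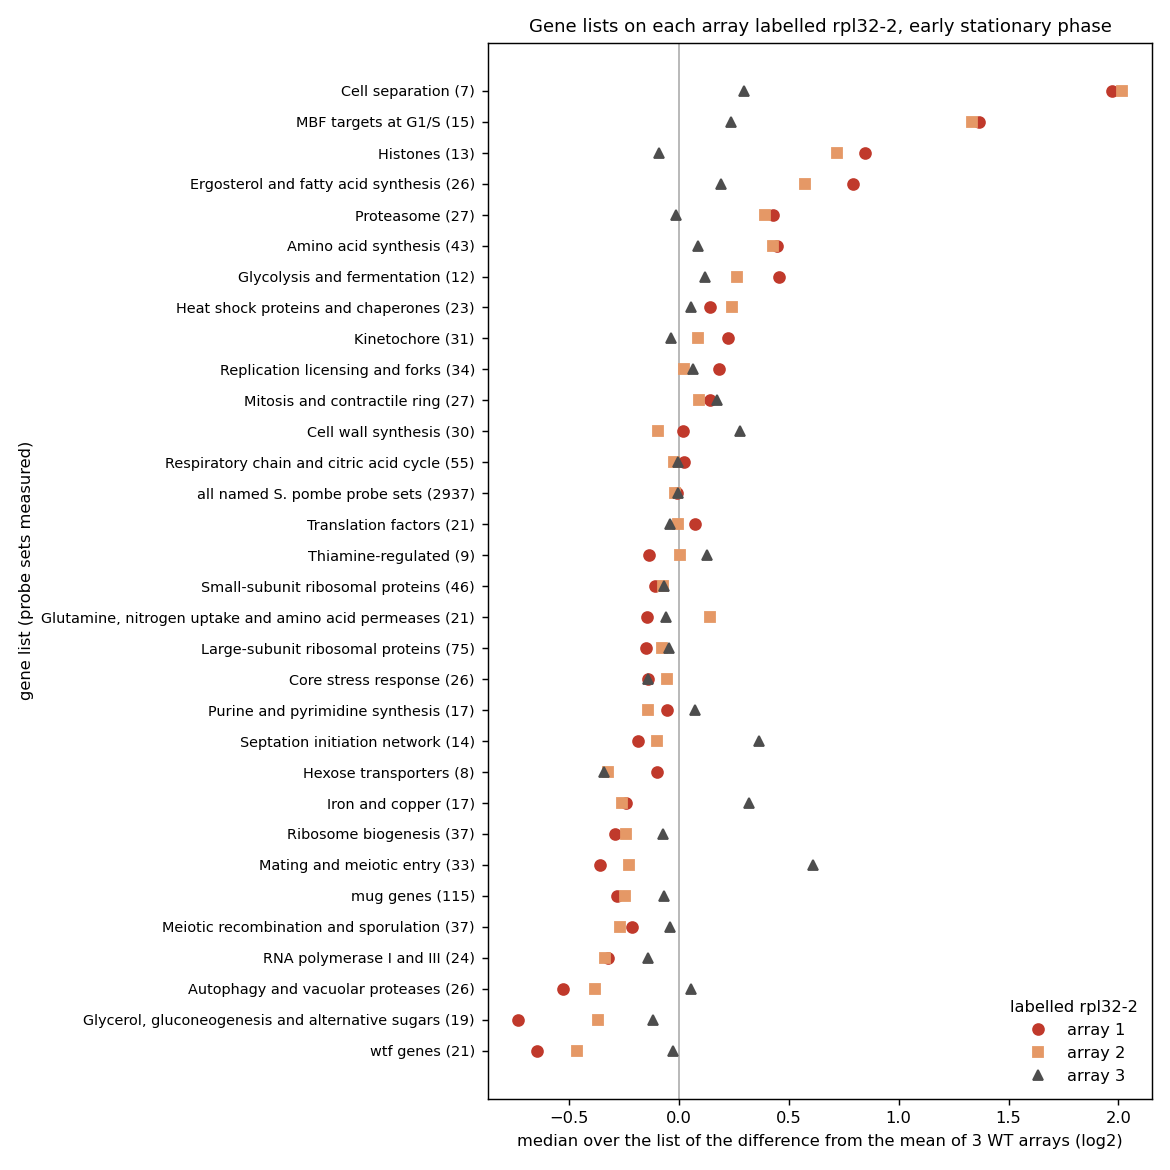
Median over each gene list (rows, with the number of probe sets measured) of the difference between an array labelled *rpl32-2* and the mean of the 3 WT arrays (log2, horizontal axis) in early stationary phase. Circles are array 1, squares array 2 and triangles array 3; for cell separation the medians were 1.97, 2.02 and 0.30.

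Arrays of the same set can be compared as deposited, without any further normalization. In set 1, array 1 labelled *rpl32-2* had 105 probe sets at least 2-fold higher than WT array 1 and 87 at least 2-fold lower (3.58% and 2.96%), and in set 2 array 3 had 8 higher and 2 lower than WT array 2 (0.272% and 0.0681%). The 8 were *mal1* (2.45), *str3*, *frp1* (1.52), *adg1* (1.37), *isp3*, *fip1*, *rem1* and *mik1* (1.05), and the 2 were *rpl3202* (−5.11) and *rpl3201* (−1.33). A difference above 0.5 was seen for 434 probe sets in set 1 and 68 in set 2, of which 27 were shared. These included the MBF targets *cdc22* (2.50 in set 1 and 0.98 in set 2), *cdt1* (3.86 and 0.77), *cdt2*, *cdc18* and *cig2*, and of cell separation *adg1* (5.18 and 1.37), *adg2* (2.82 and 0.88), *adg3* and *mid2*. Thus some of the genes called higher without array 3 also stood higher on array 3 than on WT array 2, by less. WT array 2 was among the arrays that chose these genes. It was the lowest WT array for *adg1*, *adg2*, *adg3*, *cdc22*, *cdt2* and *mid2*. After quantile normalization array 3 lay within the WT range for *adg1*, *adg2*, *cdc22*, *cdt1*, *cdt2* and *mid2*. It lay above that range for *adg3*, *cdc18* and *cig2*. Below −0.5 lay 370 probe sets in set 1 and 8 in set 2, and 3 in both (*ppk31*, *meu25* and *cta3*), while 12 probe sets lay past 0.5 in opposite directions in the 2 sets. Across the 2937 probe sets, which are not independent, the differences of both sets had a Pearson r of 0.17 and a Spearman rho of 0.13, without a shared array.

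**Figure D5:**
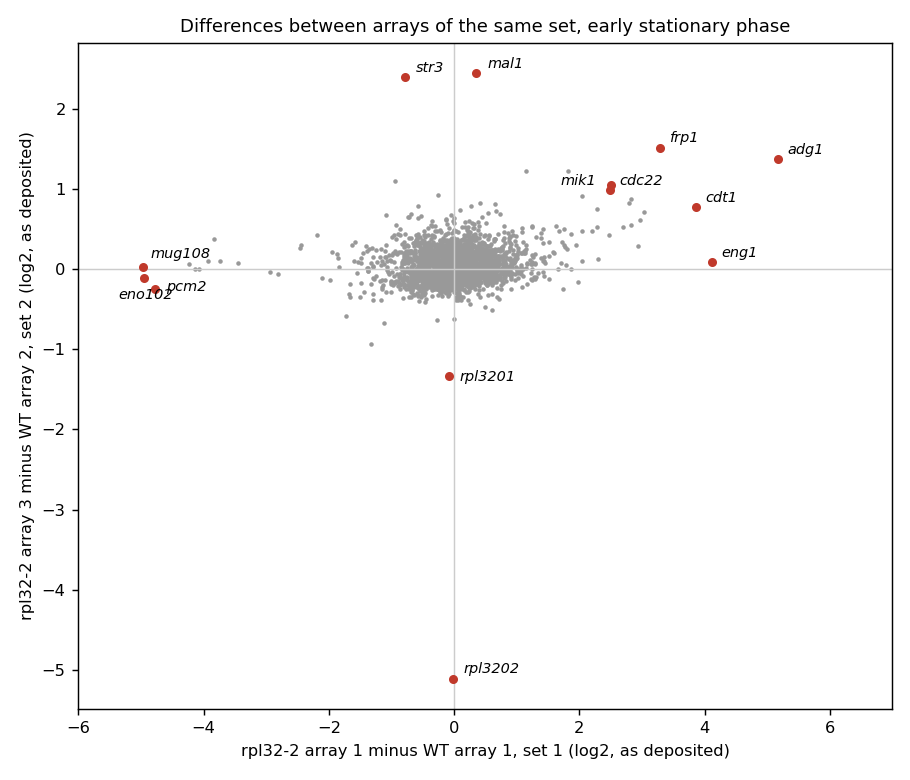
Difference of each *S. pombe* probe set between arrays of 1 set in early stationary phase (log2, as deposited): array 1 labelled *rpl32-2* minus WT array 1 (horizontal axis, set 1) and array 3 minus WT array 2 (vertical axis, set 2). Each point is a probe set; *adg1* stood at 5.18 and 1.37, and *rpl3202* at −0.02 and −5.11.

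To read array 3 on genes chosen without it, the fit was repeated with neither array 3 nor WT array 2, a choice made after the data were seen. It called 126 probe sets higher and 86 lower. Of the 126, 92 (73.0%) stood higher on array 3 than on WT array 2 as deposited, where 50.7% of all probe sets did, with a median difference of 0.11 and 2 genes past 2-fold. The same genes had a median of 1.10 between the arrays of set 1, array 1 being one of those that chose them. Of the 86, 39 (45.3%) stood higher on array 3, with a median of −0.03 and none past 2-fold. After quantile normalization 82 of the 126 and 35 of the 86 stood higher on array 3 than on WT array 2, with medians of 0.09 and −0.055. Of all 2937 probe sets 1278 did, with a median of −0.022. These counts rest on a single pair of arrays and on genes that are not independent, so that they are no test of array 3.

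In log phase the arrays labelled *rpl32-2* and WT differed little. There 0 probe sets were called and 5 passed an unadjusted p under 0.05 and 2-fold (0.17%). The genes called without array 3 in early stationary phase had median log phase differences of 0.03 (the 116 higher) and 0.00 (the 87 lower). Relative to the log phase mean of the arrays labelled *rpl32-2*, the 116 higher genes had a median of 0.20 on array 1, −0.05 on array 2 and −1.11 on array 3. The 87 lower genes had −0.05, 0.13 and 1.29. Arrays 1 and 2 and the WT arrays of early stationary phase chose these genes and array 3 took no part, so that array 3 and the other 2 are not on an equal footing. How much of the gap between them comes from that choice was not tested.

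The difference between the phases was tested in the same fit, as the strain difference in early stationary phase minus that in log phase. It called 0 probe sets (0%), with 0.375 as the smallest adjusted p, and 108 passed an unadjusted p under 0.05 and 2-fold (3.68%). Without array 3 it called 138 (4.7%), 79 positive and 59 negative. For *gln1* the interaction was 1.56 (SE 0.35, adjusted p 0.375), where the strain difference in log phase was −0.06. For *adg1* it was 3.57 (SE 1.31, adjusted p 0.378), with 0.07 in log phase.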

How the data were processed

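RNA was measured on 18 Affymetrix Yeast Genome 2.0 arrays, 3 for each of 6 groups. The deposited values are log2 signals, which the authors obtained by RMA in Partek. No source used here says which arrays were normalized together. They fell into 5 sets (single linkage on ranked values at 0.2, log2). The number of arrays limits the precision. Of 10928 probe sets, 2937 named for *S. pombe* were quantile-normalized and tested. The 2601 of *S. cerevisiae*, 166 controls and 5224 unnamed were not. There were 0 columns without a sample and 0 identical arrays. Background is percentile 95 of the *S. cerevisiae* probe sets of an array.

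limma 3.58.1 (R 4.3.3, statmod 1.5.0, Python 3.11.15) fitted 1 mean per group over all 18 arrays, which left 12 residual degrees of freedom. Two-sided p values were adjusted over all 2937 with the Benjamini-Hochberg method. The script was tested on simulated data with independent noise, without array sets or an outlying array. That test does not bear on how the counts depend on array 3. Comparisons and gene lists were chosen with earlier results of these data known. Genes were picked by rule: the paralogs, *act1*, *nmt1*, *gln1*, the 12 highest and 12 lowest without overlap or called without array 3, up to 4 of each list and 6 for the difference between phases. Not all genes so picked are described. Among the highest, *uds1* (2.34), *rid1* (2.26) and *alp31* (2.21), all without overlap, and *hus1* (1.39) are given only here. *uds1* had 9.82, 9.66 and 8.81 on the arrays labelled *rpl32-2*, against 7.81, 8.81 and 4.65 in WT cells. Its array 3 thus barely cleared WT array 2. *alp31* had 8.4, 8.0 and 6.1, against 5.8, 5.9 and 4.2, and dim WT array 3 was lowest for both genes. *rid1* had 9.9, 9.8 and 7.3, against 6.6, 6.7 and 6.9, and *hus1* 7.8, 7.4 and 5.6, against 5.4, 5.3 and 5.8. Other genes, such as *mal1* and those listed as called, were named after their values were seen. Promoters were not searched for motifs, since no promoter sequence was used here. Alternatives were other scalings, blocks, weights, the methods' t-test and each array left out.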

Additional observations from a re-analysis of the deposited data

How the results depend on the processing

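The count of 0 called probe sets for *rpl32-2* against WT in early stationary phase was also 0 as deposited, with median centring, with quantile normalization over all probe sets, with the 6 compared arrays alone, with the array set as a block (fixed or random) and with no minimum change. It was 1 among probe sets above background, 4 with trend and robust variance, 170 with array weights and 93 at an unadjusted p under 0.05. The methods' t-test gave 13 without adjustment and 0 after it. Leaving out 1 array at a time gave 0 to 203. Without array 3 labelled *rpl32-2*, it was 6 as deposited and 147 with median centring, without both arrays 3 180, and without array 3 and WT array 2 212. For the difference between phases, for which the methods' t-test was not run, the count was 0 in the limma settings above, except for 217 with array weights, 108 at an unadjusted p under 0.05, and 0 to 138 with 1 array left out. Without array 3 it was 3 as deposited and 33 with median centring, without both arrays 3 135, and without array 3 and WT array 2 151. The cause was not tested. The weight of array 3 labelled *rpl32-2* was 0.164 and that of WT array 3 0.130, the lowest of the 18 arrays.

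With the replicate number as a block, 0 probe sets were called in either comparison (smallest adjusted p 0.0511 and 0.286). The numbers do not pair the arrays: deviations of arrays with the same number had r of 0.189, −0.334 and −0.192, and array 3 labelled *rpl32-2* and WT array 2 had 0.397. Of the gene changes given with their settings, 5 of 2184 reversed, all of *nmt1* (0.03): −0.00709 with array weights, −0.43 with median centring, −0.015 without array 3, −0.034 without both arrays 3 and −0.39 without array 3 with median centring, with a range of −0.015 to 0.068 over single arrays left out. The motif search planned for promoters was not run.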
